A study of Mus musculus with 4 samples.

Results

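Chaperones of the Hsp70, Hsp90, Hsp60, DnaJ and CCT families were followed by RNA-seq in mouse cardiac progenitor cells (CPCs) after knockdown (KD) of Baf60c. Members were chosen by gene symbol alone: symbols beginning with Hspa and a digit, with Hsp90, with Dnaja, Dnajb or Dnajc and a digit, or with Cct and a digit, together with Hspd1, Hspe1, Hsph1 and Tcp1. This rule found 74 of the 20701 gene symbols in the table. There were 13 Hsp70 genes, 3 Hsp90 genes, the 3 genes of Hsp60, Hsp10 and Hsp110, 10 CCT genes and 45 DnaJ genes. The rule itself uses no measured value.

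The Baf60c KD group was 2 libraries of Nkx2.5-GFP-positive CPCs derived from E14 Tg(Nkx2-5-EmGFP) embryonic stem cells (ESCs) with short hairpin RNA knockdown of Baf60c. A pair of hairpins is listed in the study's methods, and the labels do not say which was used for either library, so the spread between the Baf60c KD libraries may or may not include a difference of hairpin. The control group was 2 libraries of sorted CPCs from the same reporter line with a control vector. Both groups share the Nkx2-5-driven GFP transgene, differentiation through BMP4, activin A, VEGF and FGF steps and collection at day 5 by fluorescence sorting, and the question was which genes depend on Baf60c, the SWI/SNF chromatin remodeller subunit encoded by Smarcd3. The ESCs were pools and not single clones, the labels do not tie each library to a pool, and p-values therefore describe how far these few libraries scatter, part of which may be technical.

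Library totals were 22714412 and 30398452 reads in Baf60c KD and 23233027 and 22064092 reads in control. They are sums over all transcripts used, where a read can count for several transcripts of a gene, and are not sequencing depth. The kept transcripts, 1 per gene, held 13199243 and 17649363 reads in Baf60c KD and 13317598 and 12623031 reads in control. Smarcd3, the target, was at 46.4 and 46.3 RPKM (read numbers corrected for transcript length and for the counted reads of the library) in Baf60c KD, against 174 and 167 RPKM in control. All 10 cardiac markers examined were above the filter, with summed levels of 2571 and 2627 RPKM in Baf60c KD and 5918 and 5751 RPKM in control, and 8 of them were lower in Baf60c KD. The 5 pluripotency markers summed to 2.54 and 3.10 RPKM in Baf60c KD and to 0.924 and 0.666 RPKM in control. Of these, 4 were under the filter and Sox2 made most of the difference, at 1.43 and 1.70 RPKM in Baf60c KD and 0.140 and 0.0736 RPKM in control. In bulk samples such as these, fewer cells of a type and less RNA per cell cannot be told apart.

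Chaperones bind unfolded stretches of other proteins and help them reach or keep their shape. Hsp70 proteins bind and release clients in a cycle driven by ATP, DnaJ proteins deliver clients and start that ATP hydrolysis, and Hsp90 acts on nearly folded clients such as kinases and steroid receptors. Hsp60 with its lid Hsp10 in mitochondria, and the CCT ring in the cytosol, enclose a client in a chamber, and in muscle the folding of actin by CCT and of myosin by Hsp90 with Unc45b are known steps of sarcomere assembly.

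Promoter elements are shown first because heat and stress of the endoplasmic reticulum (ER) are the best known inducers of these families. A match describes the letters and not a working site. RefSeq promoters (GRCm38.p6, 250 bases before to 50 after a start site) were matched to 60 of the 74 members and searched on both strands. The heat shock element was searched as GAA, TTC and GAA with 2 bases between neighbours, and stood in 179 of 27025 gene promoters (0.662%), 4 of them of members. The ER stress response element was searched as CCAAT and CCACG with 9 bases between them, and stood in 37 gene promoters (0.137%), 3 of them of members. No promoter of a member held both elements. Matches are capitalised in the following sequences, each written on the strand of its gene.
Hspa5 (chr2:34772013-34772055, plus strand): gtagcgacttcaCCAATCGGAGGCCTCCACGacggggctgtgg
Dnajc3 (chr14:118937815-118937857, plus strand): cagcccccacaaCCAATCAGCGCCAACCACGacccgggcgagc
Hsp90b1 (chr10:86705521-86705668, minus strand): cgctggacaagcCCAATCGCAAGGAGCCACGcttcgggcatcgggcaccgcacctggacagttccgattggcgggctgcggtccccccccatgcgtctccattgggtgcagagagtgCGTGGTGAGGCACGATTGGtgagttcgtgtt
Hspd1 (chr1:55088047-55088088, minus strand): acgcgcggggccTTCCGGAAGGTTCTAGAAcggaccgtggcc
Hspe1 (chr1:55088047-55088088, plus strand): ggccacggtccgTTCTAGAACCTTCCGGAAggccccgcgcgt
Dnajb6 (chr5:29735840-29735876, plus strand): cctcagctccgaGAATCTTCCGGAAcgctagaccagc
Hsp90b1 holds 2 matches of the ER element, 1 on each strand. The heat shock elements of Hspd1 and Hspe1 are the same stretch of DNA, since both genes start from a shared promoter and run in opposite directions, and the capitals there hold 2 overlapping matches. The fourth member with a heat shock element was Hsph1, where it lay past the start site.

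Chaperones as a whole changed little in amount after Baf60c KD. They took 2.01% and 2.03% of the reads of the kept transcripts in Baf60c KD and 1.97% and 1.98% in control. Of the 74 members, 66 passed the filter on low values (0.5 RPKM or more on average over the 4 libraries), and 1 of these, Hspa1a, passed it only through its level in control. The other 8 were Cct6b, Cct8l1, Dnajb7, Dnajb8, Dnajb13, Dnajc5b, Dnajc5g and Dnajc6, of which Cct8l1 and Dnajc5g were listed at 0 in all 4 libraries.

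At an adjusted p under 0.05 (limma on log2(RPKM + 1), Benjamini-Hochberg over all genes), 19 of the 66 tested members were higher in Baf60c KD and 14 were lower. Over all 11371 genes tested, 54.3% were called in this comparison, 36.1% as higher and 18.2% as lower, so that the 50% of members called, 28.8% higher and 21.2% lower, lay near the background. With median-ratio factors in place of library totals the member counts became 11 higher (16.7%) and 22 lower (33.3%), against 27.9% and 23.5% of all genes, and the share of higher genes among the members called was 33.3% in place of 57.6%. The fold changes were small: 59 of the 66 members lay within 0.3 of 0 on the log2 scale, the median was 0.01 against 0.07 over all genes, and the median size of a change was 0.13 against 0.16. On the log2(RPKM + 1) scale only Hspa12b among the members was called with a change over 2-fold, which 2.44% of all genes tested reached, while the RPKM itself was also over 2-fold lower for the low genes Hspa4l and Hspa1a. The ranges of the groups did not overlap in 54 members (81.8%), against 77.4% of all genes.

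**Figure D1:**
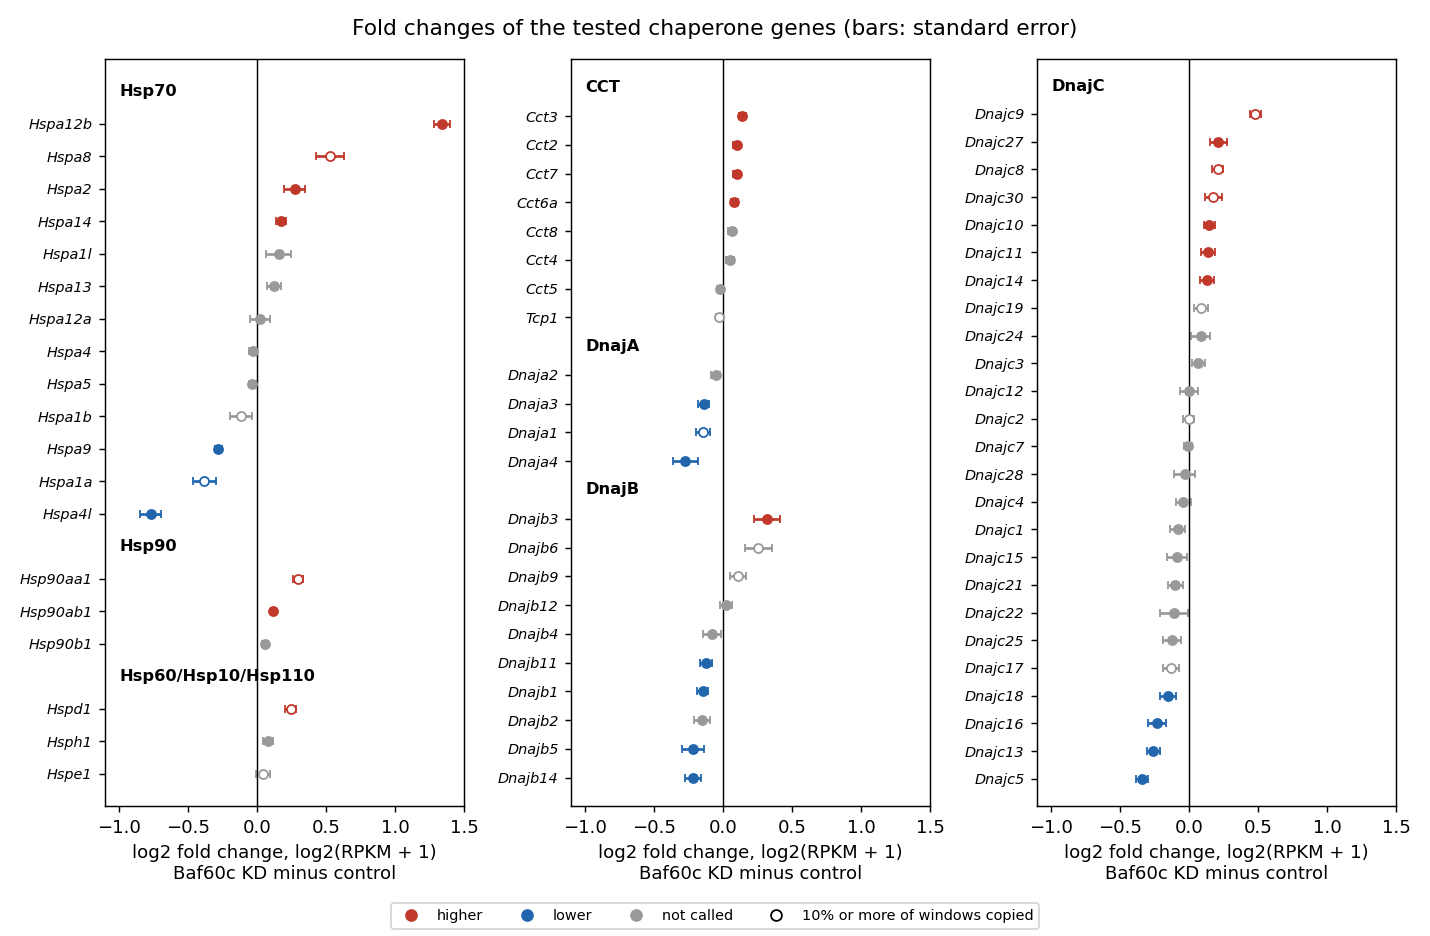
Log2 fold change (Baf60c KD minus control, on log2(RPKM + 1)) of the 66 tested chaperone genes by family, with bars of 1 standard error. Red points were called higher, blue points lower and grey points not called, and open points mark genes with 10% or more of their 50-base windows copied elsewhere in the genome. Hspa12b stands at 1.34 and Hspa4l at −0.77, and 59 genes lie within 0.3 of 0.

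Hspa12b, which encodes a distant Hsp70 relative known for its expression in endothelial cells, showed the largest difference among the members. It was at 7.35 and 7.07 RPKM in Baf60c KD, against 2.21 and 2.28 RPKM in control, or 489 and 629 against 150 and 147 reads. Both Baf60c KD libraries lay far above both controls, with a 3.22-fold higher RPKM and a log2 fold change of 1.34 (SE 0.0593, limma adjusted p = 1.12e-07). The gene lies on chromosome 2 from 130953016 to 130972057 (mm9, plus strand), and none of the 50-base windows of its gene model has a copy elsewhere. Its closest paralogue Hspa12a was at 1.23 and 1.22 RPKM in Baf60c KD and 1.18 and 1.21 RPKM in control and was not called (0.02, adjusted p = 0.843).

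Markers of endothelium and of other cell types moved in the same libraries, those of endothelium not all one way. The 6 markers summed to 28.7 and 29.4 RPKM in Baf60c KD and to 12.8 and 11.7 RPKM in control. Of the 5 tested, Tek (2.47), Kdr (0.72) and Pecam1 (0.51) were higher while Cdh5 (−0.51) and Tie1 (−0.40) were lower, and Emcn was under the filter. Tek was at 15.5 and 15.6 RPKM in Baf60c KD and 2.13 and 1.86 RPKM in control. The 5 blood markers summed to 20.1 and 21.2 RPKM in Baf60c KD and 5.07 and 5.62 RPKM in control, with Ptprc listed at 0 throughout. The 5 epicardial markers summed to 20.3 and 18.8 RPKM in Baf60c KD and 3.802 and 4.66 RPKM in control. Tbx18 was under the filter and the 4 tested were higher, but Wt1 and Tcf21 passed the filter only through Baf60c KD. The 5 fibroblast markers summed to 84.7 and 88.2 RPKM in Baf60c KD and 59.8 and 60.2 RPKM in control. Pdgfra was lower and 4 were higher, of which Postn passed the filter only through Baf60c KD. The part of these cell types in the level of Hspa12b was not tested.

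Hspa4l, a nucleotide exchange factor of the Hsp110 type that is best known from testis, had the largest decrease. It was at 0.660 and 0.679 RPKM in Baf60c KD (53 and 73 reads), against 1.92 and 1.78 RPKM in control (158 and 139 reads). The groups were well apart, the RPKM was 2.77-fold lower in Baf60c KD and the log2 fold change was −0.77 (SE 0.0747, adjusted p = 2.31e-05), a scale that understates the change of so low a gene. Its abundant paralogue Hspa4 was at 70.5 and 72.4 RPKM in Baf60c KD and 71.6 and 74.3 RPKM in control, with ranges that overlapped (−0.03, adjusted p = 0.46). With median-ratio factors Hspa4 was called lower (−0.09, adjusted p = 0.0489).

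Among the Hsp70 genes of the cytosol, Hspa8, the constitutive Hsc70, was at 16.9 and 17.4 RPKM in Baf60c KD, against 10.0 and 13.4 RPKM in control. The Baf60c KD libraries lay close together and above both controls, which differed from each other (log2 fold change 0.53, SE 0.101, adjusted p = 0.00229). The size of the change rested on the controls, being 0.34 without control replicate 1 and 0.72 without control replicate 2. Of the 50-base windows of Hspa8, 87.4% occur elsewhere in mm9, and the study's methods do not state how reads with several matches were treated, so that its level is uncertain. Hspa14, an Hsp70 known from the ribosome-associated complex of human cells, was at 33.8 and 34.7 RPKM in Baf60c KD, against 30.1 and 30.4 RPKM in control (0.17, adjusted p = 0.00241). It lies outside the rule for named genes and is given because its call held under all settings tried. Hspa2, known from meiotic germ cells, was low in both groups, at 2.06 and 1.92 RPKM in Baf60c KD and 1.56 and 1.40 RPKM in control (0.27, adjusted p = 0.0121), a call lost without Baf60c KD replicate 1 (adjusted p = 0.0688).

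The strictly heat-inducible pair Hspa1a and Hspa1b was hardly expressed in either group. Hspa1a was at 0.394 and 0.271 RPKM in Baf60c KD (25 and 23 reads), against 0.739 and 0.730 RPKM in control (48 and 45 reads), and was called lower (−0.38, SE 0.0839, adjusted p = 0.00384). Hspa1b was at 0.737 and 0.680 RPKM in Baf60c KD and 0.813 and 0.888 RPKM in control and was not called (−0.11, adjusted p = 0.238). These neighbouring genes on chromosome 17 share most of their sequence, with 61.0% and 62.3% of windows copied, so reads of the pair may not be assigned to the right gene. Among the heat-inducible partners, Dnajb1, the main cytosolic Hsp40, was at 14.0 and 13.6 RPKM in Baf60c KD, against 15.5 and 15.3 RPKM in control (−0.15, adjusted p = 0.014). Without Baf60c KD replicate 2 this call was lost (adjusted p = 0.107).

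Dnaja1, a second Hsp40 of the cytosol, was at 6.69 and 6.69 RPKM in Baf60c KD and 7.41 and 7.59 RPKM in control (−0.14, adjusted p = 0.0355), with 43.1% of its windows copied. The call of Dnaja1 was lost without control replicate 2 (adjusted p = 0.0997) and without either Baf60c KD replicate (0.136 and 0.138). Hsph1, the Hsp110 exchange factor whose promoter holds a heat shock element, was at 29.3 and 28.3 RPKM in Baf60c KD and 26.9 and 27.5 RPKM in control and was not called (0.08, adjusted p = 0.101). Dnajb1 and Dnaja1 were thus lower and the inducible Hsp90aa1, given below, higher. Hspa8, listed with this group although constitutive, was higher too. Of the windows of Hsp90aa1 82.2% and of those of Hspa8 87.4% are copied elsewhere. Hspa1a is not counted here, since it passed the filter only through control. In the same libraries 17 of 19 tested immediate-early genes were lower (89.5%, against 18.2% of all genes). With median-ratio factors 17 were lower too, against 23.5% of all genes. Egr2, among them, passed the filter only through control. Genes of this kind respond to handling as well as to growth factors. The whole list of these 20 genes summed to 165 and 159.8 RPKM in Baf60c KD and 399 and 389 RPKM in control. Their part in the levels of the heat-inducible chaperones was not tested.

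**Figure D2:**
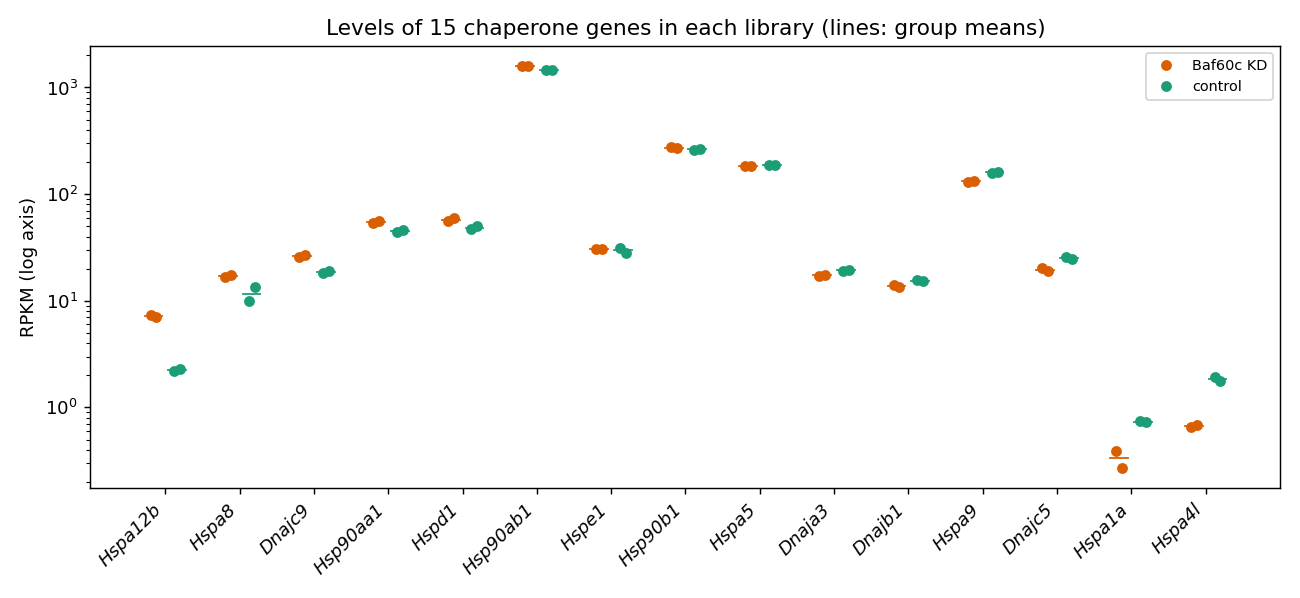
RPKM (log axis) of 15 chaperone genes in each of the 4 libraries, Baf60c KD in orange left of control in green, with points for libraries and lines for group means. Hspa12b, Hspa4l and Hspa1a show the widest gaps, and Hsp90ab1 lies above all others at 1578 and 1588 RPKM in Baf60c KD and 1459 and 1461 RPKM in control.

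Hsp90ab1 had the highest listed RPKM of all members, and both Hsp90 genes of the cytosol were higher in Baf60c KD. Hsp90ab1, the constitutive form, was at 1578 and 1588 RPKM in Baf60c KD, against 1459 and 1461 RPKM in control. The replicates nearly coincided and the difference, although small, was larger than their spread (1.08-fold, log2 fold change 0.12, SE 0.0149, adjusted p = 0.000145). Hsp90ab1 alone made up 32.5% and 32.4% of the summed RPKM of all members in Baf60c KD and 31.2% and 31.3% in control. Hsp90aa1, the inducible form, was at 54.0 and 56.4 RPKM in Baf60c KD, against 43.9 and 45.8 RPKM in control, a larger relative change (1.23-fold, 0.29, SE 0.0365, adjusted p = 0.000122). With median-ratio factors the log2 fold change was 0.06 for Hsp90ab1 (limma adjusted p = 0.00603) and 0.24 for Hsp90aa1 (0.000539). The median over all genes was 0.07 with library totals and 0.02 with median-ratio factors. The groups did not overlap in either gene, and both calls held under all settings tried. Of the windows of Hsp90aa1 82.2% are copied elsewhere, and of those of Hsp90ab1 8.30%, so the low level of Hsp90aa1 beside Hsp90ab1 is uncertain. The rank of Hsp90ab1 and its share of the summed RPKM are uncertain too. Hspa8 and other members with many copied windows may be listed too low. Hsp90b1, the Hsp90 of the ER, is described with that compartment.

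Partners of Hsp90 and Hsp70 moved both ways. Of 36 co-chaperones and heat shock factors tested, 17 were higher (47.2%, against 36.1% of all genes) and 5 lower (13.9%, against 18.2%), with a median log2 fold change of 0.10. With median-ratio factors 10 were higher (27.8%, against 27.9% of all genes) and 6 lower (16.7%, against 23.5%). Fkbp5, an Hsp90 partner of steroid receptors, was at 7.72 and 7.76 RPKM in Baf60c KD, against 6.28 and 5.64 RPKM in control (0.33, adjusted p = 0.00121). Hsf1, the transcription factor of the heat shock response, was at 14.6 and 15.4 RPKM in Baf60c KD, against 12.3 and 11.7 RPKM in control (0.30, adjusted p = 0.000673). In contrast, Unc45b, which works with Hsp90 on muscle myosin, was at 29.8 and 29.1 RPKM in Baf60c KD, against 45.9 and 42.4 RPKM in control (−0.57, adjusted p = 3.99e-06). Smyd1, a muscle methyltransferase that binds Hsp90 and myosin and is named outside the rule, was also lower (−0.21, adjusted p = 0.000165).

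DnaJ genes were called in both directions, in proportions that depended on the scaling of the libraries. Of 39 tested, 8 were higher (20.5%, against 36.1% of all genes) and 11 lower (28.2%, against 18.2%) with library totals. With median-ratio factors 3 were higher (7.69%, against 27.9%) and 15 lower (38.5%, against 23.5%). Among the 4 DnajA genes 3 were lower and the remaining one, Dnaja2, at 51.4 and 50.6 RPKM in Baf60c KD and 53.7 and 52.2 RPKM in control, was not called (−0.05, adjusted p = 0.192). Dnaja2 was called lower with median-ratio factors (−0.11, adjusted p = 0.0159), TMM factors (0.0158) and voom (0.0404). Dnaja4 was at 1.75 and 1.49 RPKM in Baf60c KD, against 2.41 and 1.94 RPKM in control (−0.27, adjusted p = 0.029). That call was lost without control replicate 1 (0.16), without Baf60c KD replicate 2 (0.113) and with no filter on low values (0.0674).

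Dnajc9, a histone H3-H4 chaperone that recruits Hsp70, had the largest increase among DnaJ genes. It was at 25.7 and 26.9 RPKM in Baf60c KD, against 18.4 and 18.8 RPKM in control. Both groups were tight and well apart (1.41-fold, log2 fold change 0.48, SE 0.0405, adjusted p = 9.22e-06), and 14.9% of its windows are copied elsewhere. In the same libraries 23 of 24 replication and mitosis genes were higher (95.8%, against 36.1% of all genes). With median-ratio factors 21 were higher (87.5%, against 27.9%). These 24 genes summed to 1144 and 1135 RPKM in Baf60c KD and 866 and 858 RPKM in control, and their relation to Dnajc9 was not tested. The nuclear splicing-associated Dnajc8, the DnajC gene with the highest mean over the 4 libraries although Dnajc7 was above it in control, was at 69.2 and 67.8 RPKM in Baf60c KD, against 57.0 and 61.5 RPKM in control (0.21, adjusted p = 0.00167). The third nuclear member, Dnajc17, was at 6.15 and 6.25 RPKM in Baf60c KD and 6.53 and 7.24 RPKM in control and was not called (−0.13, adjusted p = 0.0903), except as lower with median-ratio factors (−0.18, adjusted p = 0.0311).

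The DnaJ genes of vesicles and endosomes were lower. Dnajc5, the cysteine string protein of secretory vesicles, was at 20.1 and 19.1 RPKM in Baf60c KD, against 25.7 and 24.5 RPKM in control (−0.34, SE 0.0436, adjusted p = 0.000148). Dnajc13, which acts with Hsc70 in sorting at endosomes, was at 11.8 and 11.3 RPKM in Baf60c KD, against 13.9 and 14.2 RPKM in control (−0.26, adjusted p = 0.00104). No window of either gene model is copied elsewhere, the groups did not overlap, and both calls held under all settings. The other vesicle genes, the auxilin gene Dnajc6 and Dnajc5b, were under the filter.

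Other DnaJ genes changed from lower levels. Dnajb3 was at 1.13 and 1.36 RPKM in Baf60c KD and 0.934 and 0.670 RPKM in control (0.32, adjusted p = 0.0179), from 15 to 42 reads per library, and the call was lost without control replicate 2 (0.0874), without Baf60c KD replicate 2 (0.0906) and with voom (0.0594). Dnajc27, which also carries a Rab-like GTPase domain, was at 5.34 and 5.83 RPKM in Baf60c KD, against 4.89 and 4.48 RPKM in control (0.21, adjusted p = 0.0191). The call of Dnajc27 was lost without control replicate 2 (0.0777) or Baf60c KD replicate 2 (0.137) and with median-ratio factors (0.0548). Dnajb6, whose promoter holds a heat shock element, was at 3.65 and 4.12 RPKM in Baf60c KD and 3.53 and 2.69 RPKM in control. It was not called (0.25, adjusted p = 0.0526), nor under 9 of the 12 other settings, and 43.3% of its windows are copied elsewhere.

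**Figure D3:**
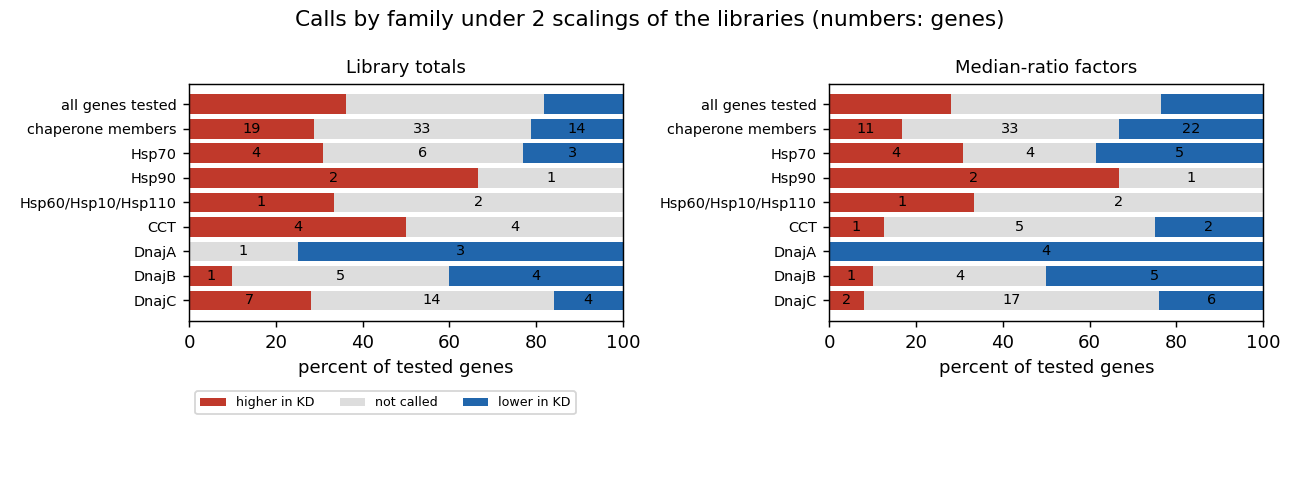
Percent of tested genes called higher (red), not called (grey) or lower (blue) in Baf60c KD by family, with numbers of genes in the bars, for library totals on the left and median-ratio factors on the right. Among the members 19 were higher and 14 lower with library totals, and 11 and 22 with median-ratio factors, while Hsp90 kept 2 of 3 genes higher under both.

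Mitochondrial chaperones split between both directions. Hspa9, the mitochondrial Hsp70 that pulls proteins through the import channel, was at 130.4 and 132 RPKM in Baf60c KD, against 158 and 162 RPKM in control. The groups lay far apart relative to their spread (1.22-fold lower, log2 fold change −0.28, SE 0.0259, adjusted p = 1.66e-05). Dnaja3, a mitochondrial DnaJ partner of Hspa9, was at 17.2 and 17.5 RPKM in Baf60c KD, against 19.0 and 19.5 RPKM in control (−0.14, adjusted p = 0.0137). Without Baf60c KD replicate 1 its call was lost (adjusted p = 0.085).

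Hspd1, the Hsp60 ring, was at 56.2 and 59.2 RPKM in Baf60c KD, against 47.3 and 49.9 RPKM in control, without overlap (log2 fold change 0.24, SE 0.0389, adjusted p = 0.000612). Its lid Hspe1, transcribed from the other side of the shared promoter printed above, was at 30.7 and 30.7 RPKM in Baf60c KD and 31.6 and 28.1 RPKM in control, so that the groups overlapped (0.04, adjusted p = 0.514). The fold change of Hspe1 turned on the control libraries, being 0.12 without control replicate 1 (adjusted p = 0.0218) and −0.04 without control replicate 2 (adjusted p = 0.443), and it was −0.01 with median-ratio factors. The ratio of Hspd1 to Hspe1 was 1.83 and 1.93 in Baf60c KD and 1.497 and 1.77 in control. Of the windows of Hspd1 58.5% and of those of Hspe1 46.5% are copied elsewhere, and exons of the pair share bases.

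Among 22 partners of import and protein quality control in mitochondria, 6 were higher (27.3%, against 36.1% of all genes) and 4 lower (18.2%, as over all genes), with a median log2 fold change of 0.02. With median-ratio factors 3 were higher (13.6%, against 27.9% of all genes) and 7 lower (31.8%, against 23.5%). Htra2, a protease of the space between the mitochondrial membranes, was at 22.8 and 22.0 RPKM in Baf60c KD, against 11.9 and 13.3 RPKM in control (0.79, adjusted p = 2.28e-06). Afg3l2, a protease subunit of the inner membrane, was at 16.9 and 16.9 RPKM in Baf60c KD, against 21.8 and 20.6 RPKM in control (−0.31, adjusted p = 0.000223). Timm23, the import channel through which Hspa9 pulls, was listed at only 0.878 and 0.856 RPKM in Baf60c KD and 1.42 and 1.42 RPKM in control (−0.37, adjusted p = 0.00208).

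The 3 ER chaperones whose promoters hold the ER stress response element were close to their control levels. Hspa5, the ER Hsp70 also called BiP, was at 183 and 183 RPKM in Baf60c KD and 188 and 186 RPKM in control (−0.03, SE 0.0232, adjusted p = 0.245). It was called lower with median-ratio factors (−0.09, adjusted p = 0.0071), TMM factors (0.0077) and voom (0.0332). Hsp90b1 was at 274 and 272 RPKM in Baf60c KD and 259 and 266 RPKM in control (0.06, adjusted p = 0.068), and at −0.0016 with median-ratio factors, with a call as higher only when control replicate 2 was left out (adjusted p = 0.019). Exons of Hsp90b1 share bases with other annotated genes. Dnajc3, an ER co-chaperone that also restrains the stress kinase Eif2ak3, was at 12.1 and 12.7 RPKM in Baf60c KD and 12.1 and 11.5 RPKM in control (0.07, adjusted p = 0.265). None of these 3 genes was called with library totals.

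Of the 14 ER members 2 were higher (14.3%, against 36.1% of all genes) and 3 lower (21.4%, against 18.2%). With median-ratio factors 0 were higher (against 27.9% of all genes) and 4 lower (28.6%, against 23.5%). Dnajc10, an ER reductase with a J domain, was at 26.8 and 26.8 RPKM in Baf60c KD, against 24.8 and 23.6 RPKM in control (0.15, adjusted p = 0.0105), and was not called with median-ratio factors (0.0731). Dnajb11, a BiP co-chaperone, was at 22.1 and 21.9 RPKM in Baf60c KD, against 24.8 and 23.3 RPKM in control (−0.12, adjusted p = 0.0299). The call of Dnajb11 was lost without control replicate 1 (0.137) and without either Baf60c KD replicate (0.0673 and 0.101), and with no filter on low values (0.0567). Dnajc16 (−0.23, adjusted p = 0.0118) and Dnajb14 (−0.22, adjusted p = 0.0127), both DnaJ proteins of the ER membrane, were lower, and each lost its call without control replicate 2 and without 1 of the Baf60c KD replicates. For Dnajc16 these values were 0.0511 and, without Baf60c KD replicate 2, 0.0633, and for Dnajb14 they were 0.0577 and, without Baf60c KD replicate 1, 0.0537. Dnajb9, a BiP co-chaperone induced by ER stress, was at 7.29 and 7.36 RPKM in Baf60c KD and 6.43 and 7.02 RPKM in control (0.11, adjusted p = 0.129, and 0.0419 without control replicate 2).

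Among 37 tested partners of ER folding 14 were higher (37.8%, against 36.1% of all genes) and 9 lower (24.3%, against 18.2%), with a median log2 fold change of 0.03. With median-ratio factors 8 were higher (21.6%, against 27.9%) and 11 lower (29.7%, against 23.5%). Ddit3, the transcription factor CHOP, was at 14.1 and 13.7 RPKM in Baf60c KD, against 26.6 and 23.4 RPKM in control (−0.80, adjusted p = 4.24e-06). Herpud1, which takes part in ER-associated degradation, was at 25.1 and 24.6 RPKM in Baf60c KD, against 44.5 and 41.5 RPKM in control (−0.77, adjusted p = 4.2e-07). Sdf2l1, a BiP-associated protein, was higher from a low level, at 4.47 and 5.22 RPKM in Baf60c KD, against 3.51 and 2.10 RPKM in control (0.64, adjusted p = 0.00647). The genes for the stress sensor Atf6 (−0.61, adjusted p = 4.87e-06) and the factor Xbp1 (−0.41, adjusted p = 5.85e-05), named after their values were seen, were lower as well. The sensor kinase Eif2ak3 was higher (0.30, adjusted p = 0.00656), and the sensor Ern1 was not called (−0.07, adjusted p = 0.47).

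The CCT ring is built from 8 different subunits, which were all expressed between 129 and 350.0 RPKM and moved by less than 0.15 on the log2 scale. Their mean was 228 and 232 RPKM in Baf60c KD and 223 and 221 RPKM in control. Cct3 was at 142 and 146 RPKM in Baf60c KD, against 132 and 129 RPKM in control (0.14, SE 0.0264, adjusted p = 0.00171), and its call held under all settings tried. Cct2, the most abundant subunit RNA, was at 339.7 and 350.0 RPKM in Baf60c KD, against 323 and 322 RPKM in control (0.10, adjusted p = 0.00511). Without Baf60c KD replicate 2 the call of Cct2 was lost (adjusted p = 0.127).

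Cct7 was at 157 and 160.3 RPKM in Baf60c KD, against 151 and 146 RPKM in control (0.10, adjusted p = 0.0129), and Cct6a was at 211 and 213 RPKM, against 197 and 203 RPKM in control (0.08, adjusted p = 0.0184). The call of Cct7 was lost without Baf60c KD replicate 2 (0.121). That of Cct6a was lost without control replicate 1 (0.0577) and without Baf60c KD replicate 1 or 2 (0.0849 and 0.153). Cct8 was at 164 and 167 RPKM in Baf60c KD and 161 and 156 RPKM in control (0.06, adjusted p = 0.0709), and Cct4 was at 273 and 269 RPKM, against 268 and 256.1 RPKM in control (0.05, adjusted p = 0.137). Both of these were called higher without control replicate 1 (0.0209 for Cct8 and 0.0126 for Cct4).

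Tcp1, the alpha subunit, was at 252 and 257 RPKM in Baf60c KD and 258 and 261 RPKM in control (−0.03, adjusted p = 0.292), and Cct5 was at 286 and 293 RPKM, against 296 and 293 RPKM in control (−0.02, adjusted p = 0.393). With median-ratio factors the ring looked different: Cct3 alone was called higher (0.08, adjusted p = 0.0224), Tcp1 (−0.09, 0.00904) and Cct5 (−0.08, 0.0104) were called lower, and Cct4 was at −0.0072. The highest subunit lay 2.39 and 2.40 times above the lowest in Baf60c KD and 2.44 and 2.49 times in control, and the order of the group means, from Cct2 at the top to Cct3 at the bottom, was the same in both groups.

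**Figure D4:**
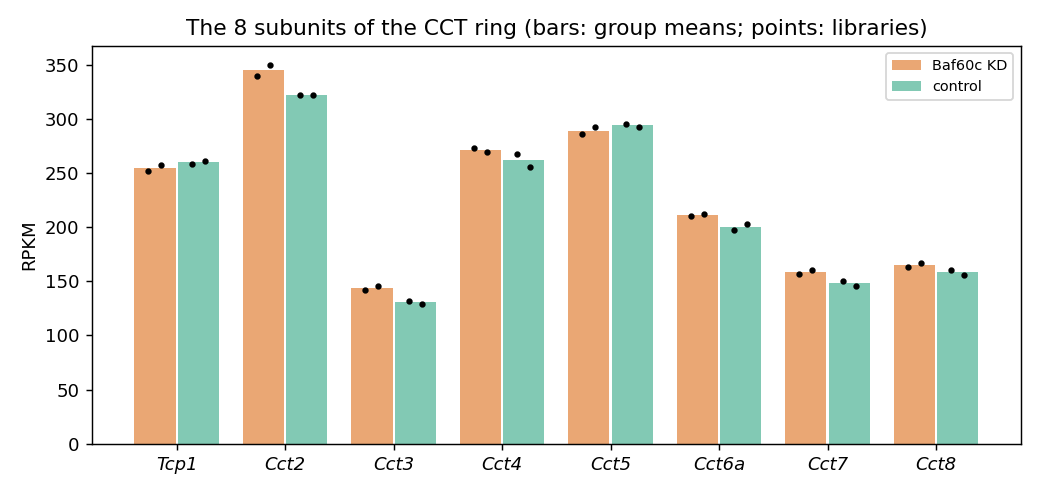
RPKM of the 8 subunits of the CCT ring, Baf60c KD in orange left of control in green, with bars for group means and points for the 2 libraries of each group. Subunits range from 142 and 146 RPKM for Cct3 to 339.7 and 350.0 RPKM for Cct2 in Baf60c KD, and the points of Cct5 overlap between the groups.

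Helpers of the CCT ring were measured too, and 6 of 11 tested were higher (54.5%, against 36.1% of all genes) and 5 were not called (limma, median log2 fold change 0.11). With median-ratio factors 3 were higher (27.3%, against 27.9% of all genes) and 1 lower (9.09%, against 23.5%). Pdcl, a phosducin-like regulator of CCT, was at 17.2 and 16.4 RPKM in Baf60c KD, against 13.3 and 14.2 RPKM in control (0.27, adjusted p = 0.000967). The prefoldin subunits Pfdn6 (0.26, adjusted p = 0.00117) and Pfdn2 (0.26, adjusted p = 0.000125), which hand unfolded actin and tubulin to the ring, were higher as well. Of 17 actins and tubulins tested, the main clients, 7 were higher (41.2%) and 5 lower (29.4%) under both scalings. Over all genes the shares were 36.1% and 18.2% with library totals, and 27.9% and 23.5% with median-ratio factors. The muscle actins Acta1 (−1.80), Actc1 (−1.68) and Acta2 (−0.60) were the called clients with the largest changes, and Actc1 was at 429 and 425 RPKM in Baf60c KD, against 1409.8 and 1341 RPKM in control.

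Copied sequence bears on several of these levels. Of the 74 members 17 had over 10% of their 50-base windows elsewhere in mm9 and 5 had over 50%, among them Hspa8, Hsp90aa1, Hspd1, Hspa1a and Hspa1b. Among the 50 tested members with under 10% of windows copied, 13 were higher (26%) and 12 lower (24%), and 6 and 18 with median-ratio factors. Among the 16 with 10% or more, 6 were higher (37.5%) and 2 lower (12.5%), and 5 and 4 with median-ratio factors. Over all genes the shares were 36.1% higher and 18.2% lower, and 27.9% and 23.5% with median-ratio factors. Exons of 17 members share bases with another annotated gene, and counting did not use the strand, so reads of such partners cannot be told apart. The part of copied sequence in the calls was not tested.

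Of the 33 members called, 13 were called in the same direction under all 12 settings tried. The 9 higher ones were Hspa12b, Hspa8, Hspa14, Hsp90aa1, Hsp90ab1, Hspd1, Dnajc8, Dnajc9 and Cct3. The 4 lower ones were Hspa4l, Hspa9, Dnajc5 and Dnajc13. The share of all genes that kept their call in this way was not computed, so these numbers have no background to be read against. Hspa1a was called lower under 11 settings and was not tested under the minimum of 50 mean reads, which it did not reach.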

How the data were processed

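RNA-seq of sorted day 5 CPCs was deposited as 1 table of transcripts for 2 Baf60c KD and 2 control libraries. The labels gave the groups and the replicate numbers. Per the study's methods and the submitters' processing notes, the authors mapped reads of stranded libraries with STAR to mm9, counted them over RefSeq exons with HOMER without regard to strand, and computed RPKM with edgeR. Columns of the authors' DESeq2 output were deposited beside them, namely a log2 fold change, a p-value and a mean signal of normalised reads over the libraries, and were not used. Versions of these tools were not stated there. The 35707 rows proved to be 2 tables normalised separately, and the first 31507 rows, with 20701 symbols, were used. The first part was ended where RPKM times length and library total stopped returning whole reads (tolerance 0.001 reads). Whole reads for 100% of the values used follow from that choice and are no separate check. Replicates differed by more than counting noise (chi-square per degree of freedom 1.16 in Baf60c KD and 1.49 in control), and precision is lowest for genes with few reads.

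For each symbol the transcript with most mean reads was kept (24 members have several). limma (version 3.58.1, R 4.3.3) was fitted on log2(RPKM + 1) of all 11371 genes with a mean of at least 0.5 RPKM, with a trended and robust variance prior and without covariates. P-values were adjusted over all of these genes (Benjamini-Hochberg). The fit was run on simulated data in which few genes were changed, as many higher as lower. Such data cannot test the scaling of the libraries. Genes were called at an adjusted p under 0.05. Alternatives were a pseudocount of 0.1, no filter, a minimum of 50 mean reads, median-ratio and TMM factors, voom on recovered reads, another transcript, each library left out, and the replicate number as a block. Copies were sought as 50-base windows of each gene model in mm9, and positions are from GENCODE on that build. The model nearest in length to the counted transcript was taken, and for 56 of the 74 members it lay within 5% of that length. Models further off included those of Dnajc5 (3728 bases, against 4394 counted), Hspa12b (3413 against 2928) and Hspa4l (2744 against 3537). Named genes were the most abundant member of each family and the 8 called members with the largest change in each direction. Also named were 7 members listed as heat-inducible, with the constitutive Hspa8 among them, 10 organelle members and the CCT ring. Of each partner list the 3 called genes with the largest change were named. Members and lists were chosen with earlier results of these data known.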

Additional observations from a re-analysis of the deposited data

How the results depend on the processing

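The counts of called members depended most on the scaling of the libraries. In place of 19 higher members there were 11 with median-ratio factors and 11 with TMM factors, and in place of 14 lower members 22 and 21, as the median of all genes shifted by 0.05 on the log2 scale. With these scalings 3 named genes changed sign around 0: Cct4 (−0.0072 and −0.0074), Hsp90b1 (−0.0016 and −0.0018) and Hspe1 (−0.0137 and −0.0139). Leaving out 1 library gave 15 to 20 higher and 9 to 14 lower members, with 9 lower ones without control replicate 2, Baf60c KD replicate 1 or Baf60c KD replicate 2, and between −0.0386 and 0.1225 for Hspe1. Without control replicate 1 the change of Hspa8 was 0.34 in place of 0.53. No filter on low values gave 16 and 10, and voom gave 17 and 18. Deviations of same-numbered libraries from their group means were hardly correlated (0.02 over 11371 genes). That value cannot show whether such libraries were prepared together, which the labels do not say. With the replicate number as a block 18 members were higher and 13 lower. Restricting the members to those with under 10% of windows copied, an alternative chosen after seeing the data, left 13 higher and 12 lower of 50 tested. Of 466 values of 39 named genes under the alternatives, 406 kept direction and side of the threshold, 37 lost their call, 16 gained one and 7 turned. The cause of these changes was not tested, beyond the smaller number of samples or genes that some alternatives leave. With 2 libraries per group and low reads, changes in Hspa1a, Hspa4l and Dnajb3 are imprecise in size.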
